A study of Mus musculus with 15 samples.

Results

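Nucleosome occupancy around promoters was compared between dendritic cells (DCs) stimulated with LPS and 3T3 fibroblasts stimulated with TNF-α. The comparison rests on 2 of the 15 libraries, 1 for each cell-type, and on the 13559 of 25881 annotated transcription start sites (TSSs) with a coverage score above 100. The score counts fragments near a TSS in the non-stimulated libraries of both cell-types. DCs are antigen-presenting immune cells, here differentiated in vitro from bone-marrow progenitor lines with GM-CSF, while 3T3 fibroblasts are a mouse line that grows without limit in culture, so each cell-type is represented by cultured cells only. LPS, a component of bacterial cell walls, was given to DCs at 100 ng/ml and the cytokine TNF-α to fibroblasts at 5 ng/ml, each for 1 h. All libraries used here were made by ChIP-MNase, in which chromatin carrying the histone mark H3K4me1 is recovered with an antibody and digested on the beads with micrococcal nuclease. Each of the 2 libraries combines 2 replicates that the authors pooled, and the stimulus differs with the cell-type, so that the effects of stimulus and cell-type cannot be told apart in this pair. Set beside it were the pooled libraries of non-stimulated DCs and fibroblasts (the resting pair, which shares no library with the stimulated pair) and 4 single libraries of fibroblasts transduced with a control vector, 2 non-stimulated and 2 treated with TNF-α as above. The other 7 libraries were not used here.

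Active promoters carry a nucleosome-depleted region (NDR) just upstream of the TSS, which leaves DNA free for transcription factors and the polymerase, and downstream of it a regular array of nucleosomes that begins with the +1 nucleosome. CpG islands, the GC-rich promoters of many broadly expressed genes, tend to be depleted of nucleosomes by their sequence, whereas promoters without an island depend more on bound factors and remodelling complexes. DCs owe their identity to myeloid transcription factors such as PU.1, C/EBP, RUNX and IRF proteins, and fibroblasts theirs to mesenchymal factors of the TEAD, PRRX and FOXC families. LPS acts through TLR4 and TNF-α through its own receptors, and both signals activate NF-κB and AP-1 and induce overlapping inflammatory genes.

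The measure used throughout is the relative NDR occupancy, that is the mean occupancy from −150 to 0 bp divided by the mean over the whole window from −1000 to 1000 bp of the same promoter, so that 1 is the level of the surroundings and 0 a window without fragments. Pooled libraries had fragments in 82.0% to 90.2% of bins and single control-vector libraries in 63.5% to 74.9%. The median relative NDR occupancy over all 13559 promoters was 0.631 in LPS-stimulated DCs and 0.597 in TNF-α-stimulated fibroblasts, against 0.665 and 0.648 in the resting pair. It was 0.606 to 0.740 in the control-vector libraries, where replicates of 1 state differed by more than the 2 stimulated cell-types did. The occupancies hold no read counts, so that the depth of each value is unknown and no interval can be given.

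Most promoters kept 1 state in both stimulated cell-types. A relative NDR occupancy below 0.5 was found in both cell-types at 3897 promoters (28.7%) and in neither at 5708, while 1798 promoters were below it in DCs only and 2156 in fibroblasts only. A difference of more than 0.5 made the NDR emptier in DCs at 2189 promoters (16.1%) and emptier in fibroblasts at 2419 (17.8%). These shares are the background for every group of promoters described here. They are not counts of promoters that passed a test, because each group has 1 library. Between the 2 control-vector replicates treated with TNF-α, 47.7% of promoters differed by more than 0.5 in either direction, compared with 34.0% in the stimulated pair, 31.2% in the resting pair, 27.7% between stimulated and resting DCs and 30.5% between stimulated and resting pooled fibroblasts. Single promoters are thus imprecise at this depth. Of the promoters lower in DCs in the stimulated pair 22.2% were also lower by more than 0.5 in the resting pair, where 14.9% of all promoters were, and of those lower in fibroblasts 21.4% were, where 16.3% of all promoters were. In both pairs at once 486 promoters (3.58%) were lower in DCs and 518 (3.82%) lower in fibroblasts, and 714 were opposite. The differences of the 2 pairs correlated across the 13559 promoters with r = 0.0820, a weak relation among promoters that share the 4 libraries.

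A fit of all 4 pooled libraries with limma, with cell-type and stimulation as terms, called no promoter at an adjusted p of 0.05. This was so for relative NDR occupancy in both directions (0% lower and 0% higher in DCs) and for patterning, the match of a promoter's profile to the mean profile of active promoters (0% lower and 0% higher). At an unadjusted p under 0.05 the fit for NDR occupancy gave 361 promoters lower and 368 higher in DCs, which is 5.38% of those tested. The smallest adjusted p was 0.777 for NDR occupancy and 0.0585 for patterning. The 4 libraries leave 1 residual degree of freedom. On simulated NDR occupancies the fit called 0% of changed promoters even at a planted difference of 4. A count of 0 thus does not show that promoters were alike. For patterning the count was not 0 among promoters with a coverage score above 200, where 1 was lower and 5 were higher in DCs by the same fit. The groups below are therefore described by their values in every library.

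Promoters expressed in both cell-types had a deep NDR in both. At the 5490 promoters of genes active in DCs and in fibroblasts before stimulation, the median relative NDR occupancy was 0.363 in LPS-stimulated DCs and 0.231 in TNF-α-stimulated fibroblasts. It was 0.429 and 0.360 in the resting pair. The 4 control-vector libraries spread from 0.282 to 0.611, across the values of both cell-types, so that the shallower NDR of DCs was within the spread of fibroblast libraries. The +1 nucleosome lay 135 bp downstream of the TSS in the 4 pooled libraries. In the array behind it the second nucleosome peaked at 315 bp in both DC libraries and between 325 and 335 bp in all 6 fibroblast libraries, without overlap. The third peaked at 485 and 495 bp in DCs, and between 495 and 535 bp in fibroblasts, which met the DC values in 1 control-vector library.

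Promoters of genes expressed in DCs alone were emptier in DCs, and those of genes expressed in fibroblasts alone differed less. Expression came from RNA-seq of cells before stimulation, deposited with the promoter annotation, so it was measured apart from the occupancies. The paper took its expression data for both cell-types from public datasets. The part of differences between those datasets in the classes was not tested. For 474 promoters active in DCs and inactive in fibroblasts the NDR ratio, which is the mean profile from −150 to 0 bp over that from −1000 to −500 bp, was 0.741 in resting and 0.735 in LPS-stimulated DCs. In the fibroblast libraries it was 0.882 and 0.846 (pooled, resting and TNF-α) and 0.882 to 0.972 (control-vector), all above both DC libraries. Of these promoters 22.6% were lower by more than 0.5 in stimulated DCs and 12.9% lower in stimulated fibroblasts. The 400 promoters inactive in DCs and active in fibroblasts had NDR ratios of 0.894 and 0.879 in DCs and of 0.810 in both pooled fibroblast libraries, but of 0.816 to 0.908 in the control-vector libraries, which overlapped the DCs. Here 16.8% were lower in stimulated DCs and 21.0% in stimulated fibroblasts, close to the background. The 1579 promoters inactive in both had ratios from 0.932 to 0.994 in all 8 libraries, without an NDR in either cell-type. Even so, 21.98% of them were lower by more than 0.5 in stimulated DCs and 18.68% in stimulated fibroblasts. The share lower in DCs was thus close to the 22.6% of promoters active in DCs alone. That share by itself does not set the promoters active in DCs alone apart.

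**Figure D1:**
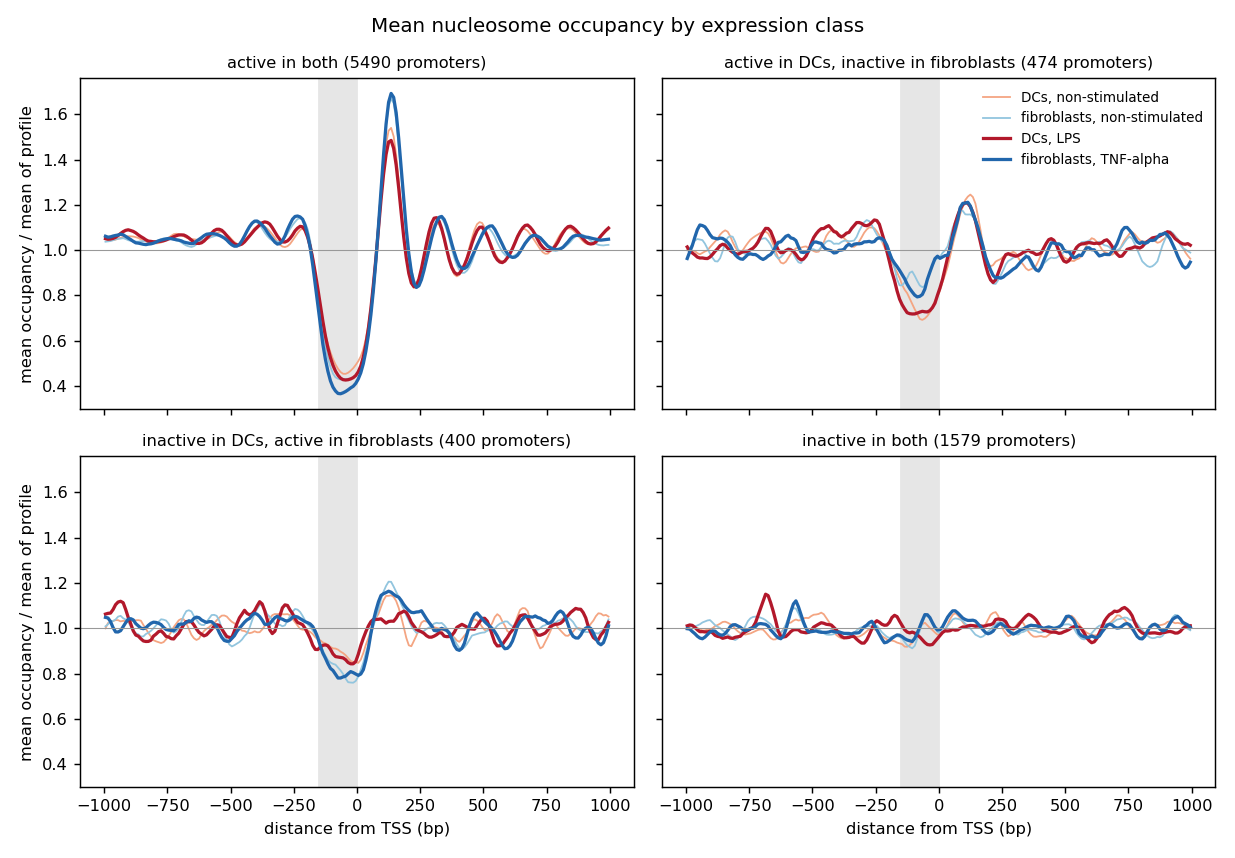
Mean nucleosome occupancy in 10 bp bins against distance from the TSS in bp, divided by the mean of each profile, for 4 expression classes in the 4 pooled libraries, with the window from −150 to 0 bp shaded. Profiles of promoters active in both cell-types have a deep NDR and a regular array in each library, those active in DCs alone are deeper in both DC libraries than in both fibroblast libraries, and those inactive in both are flat.

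Among promoters of genes ranking higher in DCs, those without a CpG island were emptier in both DC libraries than in every fibroblast library. Promoters were sorted by the difference of their expression ranks, the percentile in DCs minus that in fibroblasts, and by a CpG island within 200 bp of the TSS, which 7615 of the promoters had (56.2%). At the 252 promoters with a rank difference above 0.6 and no island, the median relative NDR occupancy was 0.636 in resting and 0.602 in LPS-stimulated DCs. In fibroblasts it was 0.896 (pooled, resting), 0.889 (pooled, TNF-α), 0.905 and 0.892 (control-vector, non-stimulated) and 0.973 and 0.937 (control-vector, TNF-α). Every fibroblast library was thus near the level of the surroundings and both DC libraries lay well below all 6. At single promoters of the set 34.1% were lower by more than 0.5 in stimulated DCs and 7.14% in stimulated fibroblasts, and 15.9% were lower in DCs in both pairs. The median patterning level, in units of the pooled occupancies, was 5.79 and 6.22 in resting and stimulated DCs and 0.287 and 0.388 in the pooled fibroblasts. With the 2 control-vector TNF-α libraries as the fibroblast side, 39.5% were lower in DCs and 7.0% in fibroblasts, where all promoters gave 22.4% and 15.7%. With the square root of the occupancies the shares fell to 18.3% and 4.37%, where all promoters gave 11.6% and 15.2%. Coverage also differed with cell-type at these promoters, since 95.2% of bins had fragments in LPS-stimulated DCs and 87.6% in TNF-α-stimulated fibroblasts, against 86% and 82.0% at all promoters. Its part in the result was not tested.

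CpG island promoters of genes with the same expression bias had medians that overlapped between the cell-types. The 132 with a rank difference above 0.6 had medians of 0.446 and 0.402 in resting and stimulated DCs and of 0.403 and 0.336 in the pooled fibroblasts, where the genes rank far lower. In control-vector fibroblasts the medians were 0.646 and 0.411 without stimulation and 0.722 and 0.609 with TNF-α. Only 48.8% to 58.8% of bins had fragments there, against 63.5% to 74.9% at all promoters, and the part of coverage was not tested. The share of the 132 lower by more than 0.5 in stimulated DCs was 16.7%, and in fibroblasts 18.9%. This depended on the fibroblast libraries, since with the control-vector TNF-α libraries 38 of the 112 with a value (33.9%) were lower in DCs and 16.1% in fibroblasts, with a median difference of −0.26, compared with 0.05 in the pooled pair. All promoters moved the same way, from 16.1% lower in DCs and 17.8% in fibroblasts to 22.4% and 15.7%. Their median difference went from 0.00318 to −0.0644. In the other direction, the 111 island promoters of genes ranking higher in fibroblasts had medians of 0.624 and 0.632 in DCs and of 0.455 and 0.405 in pooled fibroblasts, but the control-vector libraries ranged from 0.386 to 0.670 and met the DC values. With the control-vector TNF-α libraries 27.3% of them were lower in DCs and 17.3% in fibroblasts, against 18% and 25.2% in the pooled pair, so the order turned, as it did for all promoters. The 168 promoters of such genes without an island stayed near the surroundings in every library, at 0.946 and 0.90 in DCs and 0.846 to 0.967 in the 6 fibroblast libraries. Fibroblast-biased promoters without an island thus showed no separation of the cell-types like that of their DC counterparts, and the difference between these sets was not tested.

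**Figure D2:**
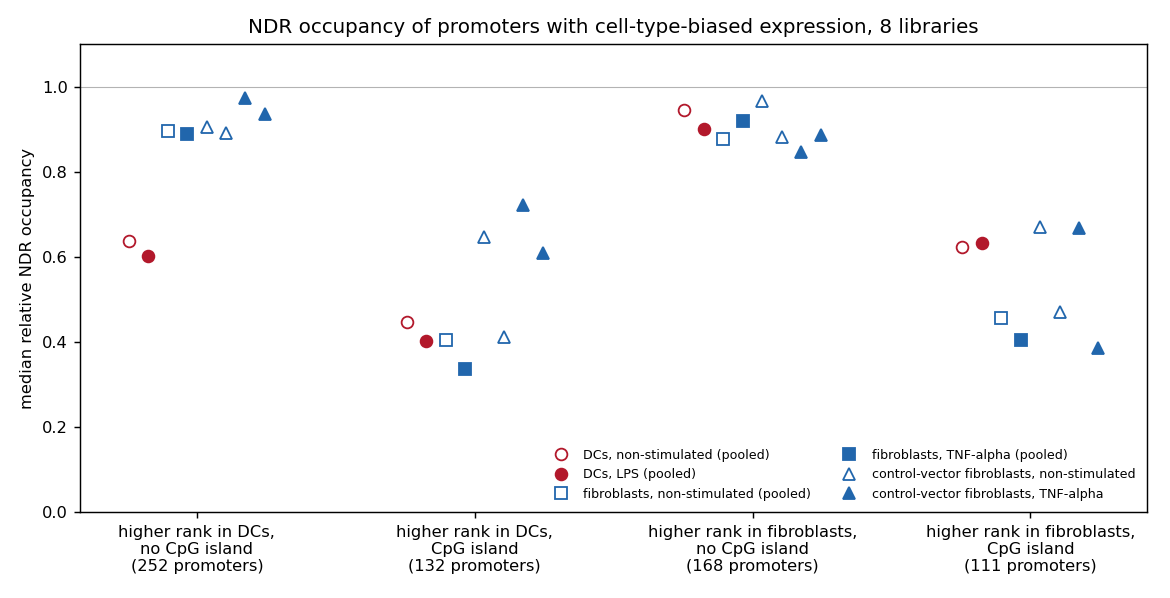
Median relative NDR occupancy in each of 8 libraries, 1 point each, for promoters of genes with a much higher expression rank in DCs or in fibroblasts, with and without a CpG island. For the 252 promoters of the first group both DC libraries, at 0.636 and 0.602, lie below all 6 fibroblast libraries, at 0.889 to 0.973, whereas in the other 3 groups the cell-types overlap.

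In 48 of the 241 promoters of this set with a value in every library (19.9%), both DC libraries lay below all 6 fibroblast libraries, and in 1 both lay above. Over all promoters 3.3% lay below and 3.77% above. The set was singled out after its values had been seen. Those promoters belong to 44 named genes, all of which had been selected for an expression rank far higher in DCs. Among them are pattern recognition and uptake receptors (Clec4n, Clec5a, Clec12a, Msr1, Cd180), integrins (Itgam, Itgax), receptors and sensors of inflammation (Nlrp3, Gpr84, P2ry6, Fcgr3), the cytokine gene Tnf and the oxidase subunit Ncf4. The distance between the nearest libraries of the cell-types was largest for Hcls1, which encodes a haematopoietic substrate of Src-family kinases. Its relative NDR occupancy was 0.0669 and 0.352 in resting and stimulated DCs, 1.79 and 1.33 in the pooled fibroblasts, 1.17 and 1.57 in non-stimulated and 1.02 and 2.61 in TNF-α-treated control-vector fibroblasts. The window was thus above the level of its surroundings in each fibroblast library and well below it in DCs. The coverage score of this promoter, 102, was just above the minimum. For Nlrp3, the sensor of an inflammasome, the values were 0.250 and 0.133 in DCs, 0.913 and 0.888 in pooled fibroblasts, 1.00 and 1.45 in non-stimulated and 1.1 and 1.12 in TNF-α-treated control-vector fibroblasts. Rbm47, which encodes an RNA-binding protein, had 0.456 and 0.252 in DCs, 1.11 and 1.19 in pooled fibroblasts, and 1.52, 1.61, 0.990 and 2.98 in the control-vector libraries in the same order. In each of these genes the DC and fibroblast values were separate in both states, as their selection required. Nckap1l, an actin regulator of blood cells, had 0.0226 and 0 in DCs against 0.540 to 1.61 in fibroblasts, and Arhgap25 had 0.105 and 0.164 against 0.666 to 1.55. Clec4a2, Clec4a3 and Clec4n are members of a receptor family with similar sequences, and Oas1a and Ifi209 have close relatives, so that the reads behind their values may be shared and these are uncertain.

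The NDR windows of the first 3 of these genes are shown because they carry the largest separation between cell-types. They run 5′ to 3′ from −150 bp of the TSS to the TSS, or to the first annotated exon where 1 begins earlier (Rbm47), in the mm9 build (NCBIM37), and lie upstream of the transcript outside any exon. Capitals mark matches to the core bound by PU.1 (GAGGAA), or to AP-1 (TGANTCA), C/EBP (TTGCNNAA) or RUNX (TGTGGT) motifs on either strand.
Hcls1, chr16:36934919-36935068, plus strand: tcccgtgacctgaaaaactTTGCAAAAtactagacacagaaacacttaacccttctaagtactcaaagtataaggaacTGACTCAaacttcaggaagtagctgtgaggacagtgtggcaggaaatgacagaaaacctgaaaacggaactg
Nlrp3, chr11:59356038-59356187, plus strand: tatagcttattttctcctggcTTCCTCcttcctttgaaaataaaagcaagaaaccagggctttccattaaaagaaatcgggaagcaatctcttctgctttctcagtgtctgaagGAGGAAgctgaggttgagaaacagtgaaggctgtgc
Rbm47, chr5:66543198-66543313, minus strand: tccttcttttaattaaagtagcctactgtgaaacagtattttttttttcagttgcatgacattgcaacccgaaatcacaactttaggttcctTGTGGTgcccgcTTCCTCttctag

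The PU.1 core was found in the 150 bp window of 23 of the 44 genes (52.3%), in 37.7% of the 252 promoters with higher rank in DCs and no island, in 16.7% of the 168 with higher rank in fibroblasts and no island, in 19.3% of all promoters without an island and in 14.8% of all promoters. The RUNX motif was in 8 of the 44 (18.2%), against 15.9% of the 252 promoters, 10.6% of all without an island and 7.10% of all. In the same order, C/EBP was in 6 (13.6%), against 9.13%, 6.28% and 4.25%, and AP-1 in 4 (9.09%), against 8.73%, 5.94% and 3.44%. The GC-box GGGCGG of SP factors was in 3 (6.82%), against 16.3%, 17.5% and 42.4%, so the 252 promoters were near all promoters without an island. Matches on both strands were counted, and the PU.1 core shares letters with the ETS motif CCGGAAG only in GGAA. Such a match is a description of sequence. It does not show that a factor was bound, and its part in occupancy was not tested.

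DC marker genes showed the same direction. The lists of genes used here were drawn up from textbook knowledge with earlier results of these data known, and each gene is represented by its promoter of highest coverage. Of 32 DC markers 26 had a promoter above the coverage minimum. All but 1 of these were in the active class in DCs and 3 were in fibroblasts (Cd14, Itgb2 and Cd74), as the labels of the cell-types have it. Their median relative NDR occupancy was 0.575 and 0.553 in resting and stimulated DCs, 0.858 and 1.1 in the pooled fibroblasts, and 0.936 to 1.13 in the control-vector libraries. No fibroblast library overlapped the DCs. In the stimulated pair 12 of 26 were lower by more than 0.5 in DCs (46.2%) and 0 in fibroblasts, with a median difference of −0.40, compared with 0.00318 for all promoters. With the control-vector TNF-α libraries as the fibroblast side it was 9 in DCs (34.6%, where all promoters gave 22.4%) and 1 in fibroblasts, with a median difference of −0.41, and in the resting pair 10 and 1.

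Among these, Lcp1, which encodes an actin-bundling protein of leukocytes, had the largest difference of the stimulated pair (−1.82), at 0.850 in DCs and 2.67 in fibroblasts. Its resting values were 1.15 and 1.41 and its control-vector values 0.448 to 1.6, so that the cell-types overlapped. Ptprc, the gene of the leukocyte surface phosphatase CD45, had 0 and 0.376 in resting and stimulated DCs, 1.63 and 1.52 in the pooled fibroblasts, 1.01 and 1.64 in non-stimulated and 1.69 and 1.73 in TNF-α-treated control-vector fibroblasts. The lowest fibroblast value lay well above the highest DC value. Tyrobp encodes the signalling adaptor DAP12. It had 0.0355 and 0.163 in DCs and 1.11 and 1.46 in the pooled fibroblasts, but 0, 0.996, 1.26 and 0.0185 in the control-vector libraries, of which 1 in each state was as empty as the DCs. Cd86, a ligand that co-stimulates T cells, had 0.387 and 0.202 in DCs, 1.58 and 1.16 in the pooled fibroblasts and 0.171, 0.685, 1.84 and 1.35 in the control-vector libraries, so that only 1 non-stimulated library reached the DC values. For Cd14, a co-receptor for LPS, DCs had 0.257 and 0.199 and the 6 fibroblast libraries 0.842 to 1.88. Both integrin α chains were lower in DCs than in every fibroblast library, Itgam (CD11b) at 0.695 and 0.539 against 1.11 to 1.89 and Itgax (CD11c) at 0.971 and 0.826 against 1.25 to 1.95. Their common partner Itgb2 had 0.184 and 0.221 against 0.758 to 1.28. Both DC libraries lay below all 6 fibroblast libraries for 8 markers (30.8%, where all promoters gave 3.3%). These were the 3 integrin genes, Ptprc, Cd14, Fcgr3, H2-Ab1 and Lyz2. Both lay above for 1 marker (3.85%, where all promoters gave 3.77%), the chemokine receptor Ccr7, at 1.84 and 1.35 against 0.701 to 1.31. Cd74 and Ciita, which serve antigen presentation, had the highest positive differences with 0.10 and 0.18.

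Windows of Ptprc and Cd86 are given to show sequence that was depleted in DCs, with the same marking. The window of Ptprc held no match to a searched motif, and that of Cd86 ends at its first exon.
Ptprc, chr1:140071883-140072032, minus strand: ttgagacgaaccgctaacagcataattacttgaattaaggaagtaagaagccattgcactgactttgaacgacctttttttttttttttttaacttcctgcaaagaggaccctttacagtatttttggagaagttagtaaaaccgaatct
Cd86, chr16:36666168-36666313, minus strand: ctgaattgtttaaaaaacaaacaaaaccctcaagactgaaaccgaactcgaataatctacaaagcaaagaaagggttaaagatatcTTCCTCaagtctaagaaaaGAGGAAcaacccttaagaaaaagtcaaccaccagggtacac

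**Figure D3:**
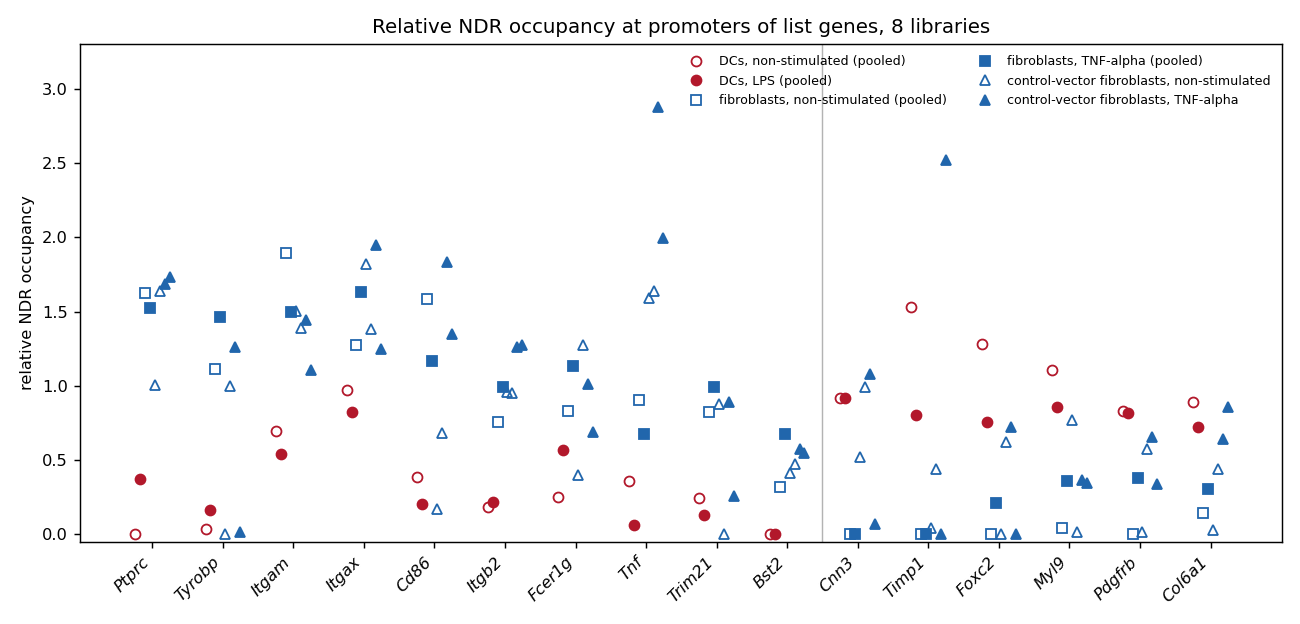
Relative NDR occupancy of single promoters in 8 libraries, 1 point each, with 10 genes of DC, cytokine and interferon lists to the left of the line and 6 of fibroblast lists to the right. The 2 DC points lie below all fibroblast points for Ptprc, Itgam, Itgax, Itgb2, Tnf and Bst2, and above them for Foxc2, Myl9 and Pdgfrb, and the cell-types overlap for the rest.

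For transcription factors of the myeloid lineage the result depended on the fibroblast libraries. Of 11 such promoters 3 were lower by more than 0.5 in stimulated DCs (27.3%) and 0 in fibroblasts, where all promoters gave 16.1% and 17.8%. The median difference was −0.01. With the control-vector TNF-α libraries 5 were lower in DCs (45.5%, where all promoters gave 22.4%) and 1 in fibroblasts, with a median of −0.37, and in the resting pair 1 and 2, with a median of 0.14. Ikzf1 (Ikaros) was at 0.544 in stimulated DCs and 1.63 in stimulated fibroblasts, but at 1.31 and 0.694 in the resting pair. For Irf4 the stimulated pair had 0.473 and 1.32 and the resting pair 0.633 and 0.759. Spi1, which encodes PU.1, had 0.0397 and 0.206 in resting and stimulated DCs and 0.363 and 0.833 in the pooled fibroblasts, but 1.36, 0.086, 1.71 and 0 in the control-vector libraries, on either side of the DCs. Runx1 had 0.321 and 0.367 in DCs and 0.545 to 0.894 in all 6 fibroblast libraries, the 1 factor of the list with no overlap (9.09%, where all promoters gave 3.3% below). At Zbtb46, a marker factor of classical DCs, the order was the opposite, with 0.251 and 0.382 in DCs and 0 in both pooled fibroblast libraries, although 1 control-vector library of each state had 1.27 or 1.38.

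Lists of fibroblast genes had more promoters lower in fibroblasts than in DCs in the stimulated pair, but none of the 3 lists kept this in every comparison. Of 17 promoters of matrix and stromal genes 6 were lower by more than 0.5 in stimulated fibroblasts (35.3%) and 3 in DCs (17.6%), with a median difference of 0.39. With the control-vector TNF-α libraries in place of the pooled one the counts were 0 and 2 and the median −0.23, the opposite sign. The same held for 9 promoters of actin and SRF target genes, at 4 and 1 (44.4% and 11.1%) with a median of 0.35 in the pooled pair. With the control-vector libraries they were at 1 and 4 with −0.19. All promoters moved the same way, from 17.8% lower in fibroblasts and 16.1% in DCs to 15.7% and 22.4%. Their median difference went from 0.00318 to −0.0644. For 8 mesenchymal transcription factors the counts were 5 and 1 (62.5% and 12.5%) and the median 0.53 in the stimulated pair. They were 4 and 1 and 0.51 with the control-vector libraries, and 2 and 2 and −0.27 in the resting pair. Fn1 (fibronectin) gave the largest difference of the matrix genes, at 1.18 in stimulated DCs and 0 in stimulated fibroblasts, yet resting fibroblasts had 0.934 and the TNF-α-treated control-vector libraries 1.32 and 1.54. Timp1, an inhibitor of matrix metalloproteinases, had 1.53 and 0.804 in DCs and 0 in both pooled fibroblast libraries, with 0.0437, 0.441, 0 and 2.52 in the control-vector libraries, where 1 TNF-α replicate exceeded the DCs. Foxc2, a forkhead factor, had 1.28 and 0.759 in DCs, 0 and 0.209 in the pooled fibroblasts and 0, 0.619, 0.721 and 0 in the control-vector libraries, all below the DCs. Cnn3, a calponin that binds actin, had 0.919 and 0.920 in DCs and 0 in both pooled fibroblast libraries, whereas 0.523, 0.989, 1.08 and 0.0731 in the control-vector libraries reached the DC level in 1 replicate of each state. Both DC libraries lay above all 6 fibroblast libraries for Lox, Pdgfrb and Tgfbr2 among the matrix genes and for Myl9 among the actin genes, and below them for S100a4. These are 17.6% of the matrix promoters above and 5.88% below, and 11.1% of the actin promoters above. All promoters gave 3.77% above and 3.3% below. Hmga2 and Tead4 had the largest differences of the mesenchymal factors (0.98 and 1.17), but were at 0.761 and 1.12 in resting DCs against 1.98 and 1.36 in resting fibroblasts.

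Windows of Foxc2 and Cnn3 are given as examples from the fibroblast lists. Both lie in CpG islands, hold no PU.1 core and carry matches to the motif of NF-Y (CCAAT on either strand, in capitals), a motif found in 26.4% of all windows. They do not stand for the lists, since the window of Timp1, not shown, lies outside an island and holds no NF-Y match. The DC windows of Hcls1 and Ptprc hold no PU.1 core either.
Foxc2, chr8:123639921-123640070, plus strand: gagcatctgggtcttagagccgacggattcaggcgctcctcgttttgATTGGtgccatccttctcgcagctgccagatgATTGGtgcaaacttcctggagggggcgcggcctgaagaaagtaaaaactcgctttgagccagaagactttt
Cnn3, chr3:121129309-121129458, plus strand: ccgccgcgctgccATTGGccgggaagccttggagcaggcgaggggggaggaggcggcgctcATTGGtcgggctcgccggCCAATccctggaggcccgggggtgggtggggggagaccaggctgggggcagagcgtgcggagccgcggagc

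Inflammatory genes, whose induction by the 2 stimuli was not examined here, showed no common direction. Of 31 promoters of chemokine, cytokine and adhesion genes 5 were lower in stimulated DCs (16.1%) and 2 in stimulated fibroblasts (6.45%). All promoters gave 16.1% and 17.8%. The median difference of the list was 0.00588. With the control-vector libraries the counts were 10 and 5 and the median −0.20, when that of all promoters was −0.06. Tnf was the 1 gene of the list whose DC libraries both lay below all fibroblast libraries, with 0.358 and 0.0631 in resting and stimulated DCs, 0.904 and 0.678 in the pooled fibroblasts, 1.59 and 1.64 in non-stimulated and 2.88 and 1.99 in TNF-α-treated control-vector fibroblasts. The window was emptiest after LPS, although states within DCs rest on 1 library each. Cxcl2, a neutrophil chemokine, had 0.990 in resting and 0.0165 in LPS-stimulated DCs, compared with 0.895 and 0.685 in fibroblasts before and after TNF-α. Il6 had 0.707 in stimulated DCs and 1.45 in stimulated fibroblasts, with control-vector values from 0 to 1.82. Cxcl16 and Cxcl12 gave the largest differences towards DCs (−1.35 and −1.09). The largest in the other direction was Ccl20, at 2.89 in stimulated DCs and 0.360 in stimulated fibroblasts, but at 0 and 1.30 in the resting pair, so that its sign was opposite between the pairs. Cxcl5 had 1.43 and 0.322. For Csf2, Ccl7 and Il23a, which encode GM-CSF, a monocyte chemokine and an IL-23 subunit, both DC libraries lay above all 6 fibroblast libraries. That is 9.68% of the list above, where all promoters gave 3.77%. Tnf makes 3.23% below, where all promoters gave 3.3%.

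The regulators of NF-κB split as well. Of 15 promoters 2 were lower in stimulated DCs (13.3%), those of the feedback genes Zc3h12a and Tnip3, and 4 in stimulated fibroblasts (26.7%). All promoters gave 16.1% and 17.8%. None of the 15 differed in the same direction by more than 0.5 in both pairs. Against the control-vector TNF-α libraries 4 were lower in each direction. Nfkbib, which encodes the inhibitor IκBβ, had 0.939 in LPS-stimulated DCs and 0 in the other 7 libraries. The window was therefore empty everywhere but in 1 library. Nfkbiz (IκBζ) had 1.33 in stimulated DCs and 0 in stimulated fibroblasts, after 1.12 and 1.25 in the resting pair, and 0 to 0.520 in the control-vector libraries. Bcl3 and Traf1 differed by 1.1 and 0.82 in the stimulated pair. Of 12 AP-1 and immediate early genes 1 was lower in DCs (8.33%), Klf6, at 0 against 0.795, and 2 in fibroblasts (16.7%), Ier3 and Myc. With the control-vector TNF-α libraries these counts were 1 and 4. Ier3 resembled Nfkbib, with 1.64 in LPS-stimulated DCs, 0.0123 in resting pooled fibroblasts and 0 in the other 6 libraries.

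Interferon response genes included more promoters lower in DCs than in fibroblasts. Of 28 promoters 8 were lower by more than 0.5 in stimulated DCs (28.6%, where all promoters gave 16.1%) and 2 in fibroblasts (7.14%, where all gave 17.8%). With the control-vector TNF-α libraries the counts were 8 and 2 as well, but there all promoters gave 22.4% and 15.7%, nearer to the share of the list. In the resting pair they were 6 and 2. With the window moved to −100 to 50 bp they were 7 and 3 and the median difference went from −0.18 to 0.00097, so that the median of the list depends on the window. Ifih1, a sensor of viral RNA, had 1.48 in resting and 0.268 in stimulated DCs against 0.497 and 1.52 in fibroblasts, which reversed the order between the pairs. Irf5 had 0.575 in stimulated DCs and 1.84 in stimulated fibroblasts, and Isg15 0.384 and 1.35, but each had control-vector values below those of both DC libraries. Bst2 (tetherin), which holds virus particles at the cell surface, was at 0.00409 and 0 in DCs and at 0.316 to 0.675 in all 6 fibroblast libraries. Its gene was in the active class in both cell-types. Oas2 and Oas1a also had both DC libraries below all fibroblast libraries, and Gbp3 and Isg20 both above. Those below, with Bst2, are 10.7% of the list and those above 7.14%, where all promoters gave 3.3% and 3.77%. Rsad2 and Gbp5 had the largest differences in the other direction (0.65 and 0.62).

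The pathways of the 2 stimuli themselves gave values on both sides. Among 17 promoters of the LPS receptor pathway 4 were lower in DCs in the stimulated pair (23.5%) and 2 in fibroblasts (11.8%), with a median difference of 0.06. When the control-vector TNF-α libraries were used it was 7 (41.2%) and 3, where all promoters gave 22.4% and 15.7%, and the median turned to −0.38. The 4 in the stimulated pair were Tlr7, Irak3, Ly96 and Ticam1, of which Ly96 encodes the partner of TLR4 that binds LPS, with 0.104 and 0 in DCs, 0.411 and 0.765 in the pooled fibroblasts and 0.0621 to 1.67 in the control-vector libraries. The 2 lower in fibroblasts were Irak1 and Map3k7, and the window of Map3k7, the kinase TAK1, had 3.3 in stimulated DCs and 0.658 in stimulated fibroblasts but 0.843 and 2.16 in the resting pair. Tlr9 was the only gene of the list with both DC libraries below all fibroblast libraries (5.88%, where all promoters gave 3.3%), at 0.719 and 0.662 against 0.856 to 1.96. Among 12 promoters of the TNF receptor pathway 4 were lower in DCs (Casp8, Ikbkb, Tnfrsf1b and Tradd) and 3 in fibroblasts (Sharpin, Tnfrsf1a and Traf2). These were 33.3% and 25%, where all promoters gave 16.1% and 17.8%. With the window from −100 to 50 bp the counts were 1 and 3, and in the resting pair 2 and 0. Tnfrsf1a and Tnfrsf1b encode the 2 receptors of TNF-α. Tnfrsf1a was at 1.46 in stimulated DCs and 0.299 in stimulated fibroblasts, and Tnfrsf1b at 0.224 and 0.832. In the resting pair they were at 0.772 and 0.577, and at 0.553 and 0.530. Casp8 kept its direction in both pairs, at 0.318 and 0.710 in DCs against 1.97 and 1.95 in pooled fibroblasts, though 1 control-vector library had 0.223. None of 6 promoters of BAF complex subunits, a nucleosome remodeller, differed by more than 0.5 in the stimulated pair, although 3 were lower in DCs when the control-vector libraries were used.

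Lineage genes of other tissues served for comparison. Of 35 such genes only 13 had a promoter above the coverage minimum. Of these 2 were lower in stimulated DCs (15.4%) and 3 in stimulated fibroblasts (23.1%), where all promoters gave 16.1% and 17.8%. The median difference was −0.00757, beside 0.00318 for all promoters. Most of these genes were inactive in DCs (9 of 13). The single promoters nonetheless ranged from −0.87 (Apoa1) to 0.94 (Sftpc), although most other lists had a wider range. For Krt5 both DC libraries, at 0.0778 and 0, lay below all 6 fibroblast libraries at 0.540 to 1.93, although the gene was inactive in both cell-types, and for Cd4 they lay above. Each is 7.69% of the list, where all promoters gave 3.3% below and 3.77% above. Lack of overlap at 1 promoter therefore also occurred at a gene inactive in both cell-types.

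**Figure D4:**
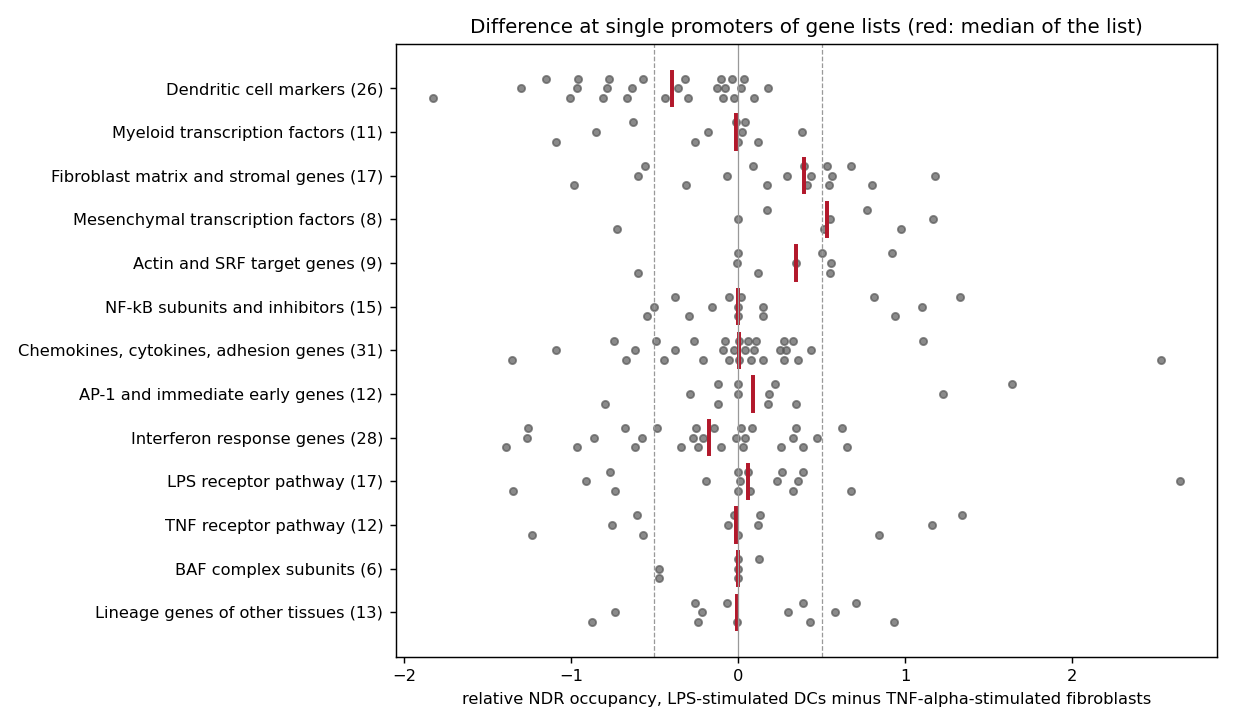
Difference in relative NDR occupancy, LPS-stimulated DCs minus TNF-α-stimulated fibroblasts, with 1 point for each promoter of 13 gene lists, the median of each list in red and dashed lines at −0.5 and 0.5. The DC markers lie mostly to the left with a median of −0.40 and none beyond 0.5, while the inflammatory, NF-κB and receptor lists spread to both sides of 0.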

How the data were processed

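ChIP-MNase libraries against H3K4me1 were used from DCs and 3T3 fibroblasts. Per the study's methods, the authors used bowtie for alignment to the mm9 build (the labels' processing notes list Bowtie2 and bedtools) and dropped surplus duplicates. Single-end reads were lengthened, and their coverage in bins of 10 bp was taken relative to the surrounding 1 kb, which masks differences in overall occupancy between promoters, and smoothed over 50 bp. The deposited signal has 200 bins for each of 25881 TSSs, with an empty bin read as 0, and hides the depth. The authors' annotation adds a coverage score (fragments near the TSS) and an expression score from RNA-seq before stimulation, used only as classes (active above 0.02 times the mean, inactive at 0) and as ranks within a cell-type, since the scales differ. Another 2 columns hold the authors' own log2 changes of array expression on stimulation and were not used, so that inducible promoters were not separated. Rows of all tables were taken to be in the same order. The annotation gives no symbols, and 24924 (96.3%) were matched to RefSeq gene names (GRCm38.p6, names only). In the mm9 genome, an annotated start was found no more than 50 bp from 87.5% of TSSs.

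Groups followed the labels. With 1 library in each group no test of the stimulated pair exists, and differences above 0.5 were counted. limma 3.58.1 (R 4.3.3) fitted the 4 pooled libraries with cell-type and state, with Benjamini-Hochberg adjustment over 13559 promoters. On simulated NDR occupancies the same fit called 0% of 50 changed promoters at each planted difference of 0.5, 1, 2 and 4. Patterning was the sum over bins of a template (active promoters of the same non-stimulated cell-type, rescaled and centred) times the deviation of occupancy from its mean, and it grows with the mean occupancy, which is lower in single libraries. CpG islands needed at least 50% GC and at least 0.6 of the CpGs that base composition predicts, around the TSS. Named genes were up to 4 in each direction of each list with the largest stimulated difference. Promoters whose DC libraries both lay below or above all fibroblast libraries were added after values were seen. The rule's further groups (promoters called by limma, and inducible promoters) were empty or not used. Promoters with an expression bias, those below all fibroblast libraries, and the sequences shown were chosen after values were seen. Members and lists were chosen with earlier results of these data known. Python 3.11.15, numpy 2.4.6 and pandas 2.3.3 were used. One gene and 1 sequence window are not reported here.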

Additional observations from a re-analysis of the deposited data

Results flagged for a closer look

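For 5 gene lists the median difference in relative NDR occupancy, DCs minus fibroblasts, had opposite signs in the stimulated and the resting pair. It was −0.0127 and 0.143 for 11 myeloid transcription factors, 0.532 and −0.275 for 8 mesenchymal transcription factors, 0.00588 and −0.03 for 31 chemokine, cytokine and adhesion genes, 0.0585 and −0.112 for 17 genes of the LPS receptor pathway and −0.00757 and 0.16 for 13 lineage genes of other tissues. Each pair has 1 library for each cell-type, and the difference between the pairs was not tested. The pairs differ in both stimuli at once.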

How the results depend on the processing

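No paired analysis was possible because the pooled sets carry no replicate number that DCs and fibroblasts share. Of 58 alternative values for the main results 49 counted as close, 9 moved and none reversed. Most of the close values were limma counts of 0 set beside 0. The fit for NDR occupancy called 0% of simulated differences up to 4, so these values do not show stability. Counts were close within 1.5 times, and differences of the NDR ratio within 1 SD of the ratios of the 2 control-vector TNF-α libraries, an SD that differs between classes. With a coverage score above 200 the promoters lower in DCs were 1059 (15.5%) and those lower in fibroblasts 1116 (16.4%), fewer because fewer promoters were tested, and limma called 1 promoter lower and 5 higher in DCs for patterning. The 1 was Tor1aip1 (adjusted p = 0.00374 by limma), and the 5 lie close together on chromosome 2, of which 1 has a name (Mir467a-3). Some of these 5 TSSs lie so close on the same strand that their windows overlap almost wholly, so the 5 are not independent. Whether reads were shared between the others was not tested. For Tor1aip1 the patterning was 1.74 and −19.8 in resting and stimulated DCs, 44.2 and 38.9 in the pooled fibroblasts and −13.3 to 16.4 in the control-vector libraries. Differences of the NDR ratio between the stimulated libraries moved with the window from −100 to 50 bp to −0.0893 for promoters active in DCs alone (from −0.111), 0.0910 for those active in fibroblasts alone (from 0.0690) and −0.0603 for those inactive in both (from −0.0319). With a median over promoters they moved to 0.101 for all promoters (from 0.0196) and 0.101 for those active in fibroblasts alone. The cause was not tested. Leaving out each pooled library gave from 0 to 0 calls by limma in every case. With 1 residual degree of freedom these counts do not show stability either.

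For the gene lists and expression-biased sets 6 further settings each were added after seeing the data, and 80 of 204 counts moved by more than 1.5 times. The DC markers lower in DCs numbered 7 to 12 of 15 to 26 throughout and those lower in fibroblasts 0 or 1. At promoters of higher expression rank in DCs without a CpG island, the share lower in DCs was 18.3% (square root of occupancy, where all promoters gave 11.6%) to 39.5% (control-vector libraries, where all gave 22.4%) and that lower in fibroblasts 4.37% to 7.14%.

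Depth is unknown, fewer bins carry fragments in single than in pooled libraries, and replicates of control-vector fibroblasts differed by more than the stimulated cell-types, so values of single promoters carry a large error that cannot be estimated for DCs. Extent of digestion and library preparation cannot be told apart from cell-type in the pooled libraries.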
